A study of Mus musculus with 4 samples.

Results

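The G1 cyclins and their kinases are the 8 genes Ccnd1, Ccnd2 and Ccnd3 (the D-type cyclins), Cdk4 and Cdk6 (their kinase partners), Cdk2, and Ccne1 and Ccne2 (the E-type cyclins, partners of Cdk2). They were taken by name: every probe set whose platform annotation names a single gene, and that gene is a member, was used. This gave 24 probe sets of 45101 on the array, for 8 genes of 18193 with a probe set of their own, and 0 further probe sets named a member together with another gene. Each gene is represented by its brightest probe set (by the mean of the 4 arrays), and the values of every other probe set are given as well. All values are log2 intensities made with RMA, so a difference of 1 means a doubled signal, and levels of different probe sets cannot be set against each other.

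The cells were haematopoietic stem cells sorted from mouse bone marrow by absent lineage markers and CD48 and by the presence of Sca-1, Kit and CD150. All animals carried a transgene that fuses N-myc, a transcription factor of the MYC family, to the red fluorescent protein mCherry. The N-myc high group was the fraction bright for mCherry and the N-myc low group the dim fraction, with 2 arrays each, labelled mouse 1 and mouse 2. The cells were untreated and uncultured, and the sources used here give no age, strain or further allele.

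Progression through G1 depends on D-type cyclins, which rise with growth signals and activate Cdk4 and Cdk6. These kinases phosphorylate the retinoblastoma proteins, E2F transcription factors are freed, and cyclin E with Cdk2 then carries the cell into S phase. Most haematopoietic stem cells rest outside the cycle, and mice without D-type cyclins, or without both Cdk4 and Cdk6, fail to make enough blood cells. In human stem cells, the level of CDK6 protein separates long-term stem cells, which have little and are slow to leave quiescence, from short-term ones.

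Mycn, the gene by which the cells were sorted, was at 10.48 and 10.39 in N-myc high cells (mouse 1 and mouse 2), against 9.44 and 9.65 in N-myc low. Cd48, the gene of a marker whose absence the sort required, was at 7.42 and 7.11 in N-myc high cells, against 9.89 and 9.07 in N-myc low. It thus lay lower without overlap, as did 20.8% of all genes. Of the genes of the sort's positive markers, Kit and Slamf1 (CD150) overlapped between the groups, and Ly6a (Sca-1) was not analysed here. Of 6 measured genes on the stem cell list, the other 4 (Procr, Fgd5, Hlf and Mecom) are not part of the gate. All 4 lay higher in N-myc high without overlap, where 15.6% of all genes did so. Both arrays of mouse 1 carried Xist (11.4 and 11.1 in the N-myc high and the N-myc low fraction) together with the Y-linked Eif2s3y (8.53 and 8.43), and whether that sample holds RNA of more than 1 animal was not tested. In mouse 2, Xist was at 3.84 and 3.70. The differences are therefore also given for each mouse. The mean of the BioB and BioC hybridisation controls was 10.67 and 10.62 in N-myc high cells, against 10.84 and 11.51 in N-myc low, with N-myc low mouse 2 the highest.

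With limma, 0 of 18193 genes passed a Benjamini-Hochberg adjusted p under 0.05 (0%), 1148 had an unadjusted p under 0.05, and the lowest adjusted p was 0.671. None of the 8 members passed, so the values below describe these arrays. Among the members, 1 was lower in N-myc high at an unadjusted p under 0.05 (Cdk6), against 2.78% of all genes, and 1 was higher (Ccnd1), against 3.53%. Both N-myc high arrays lay below both N-myc low arrays for 1 member (Cdk6), where 20.8% of all genes did so, and above them for 2 members (Ccnd1 and Cdk2), where 15.6% did. The other 5 overlapped between the groups. The 8 members had a median difference of -0.05, and all genes one of -0.03.

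**Figure D1:**
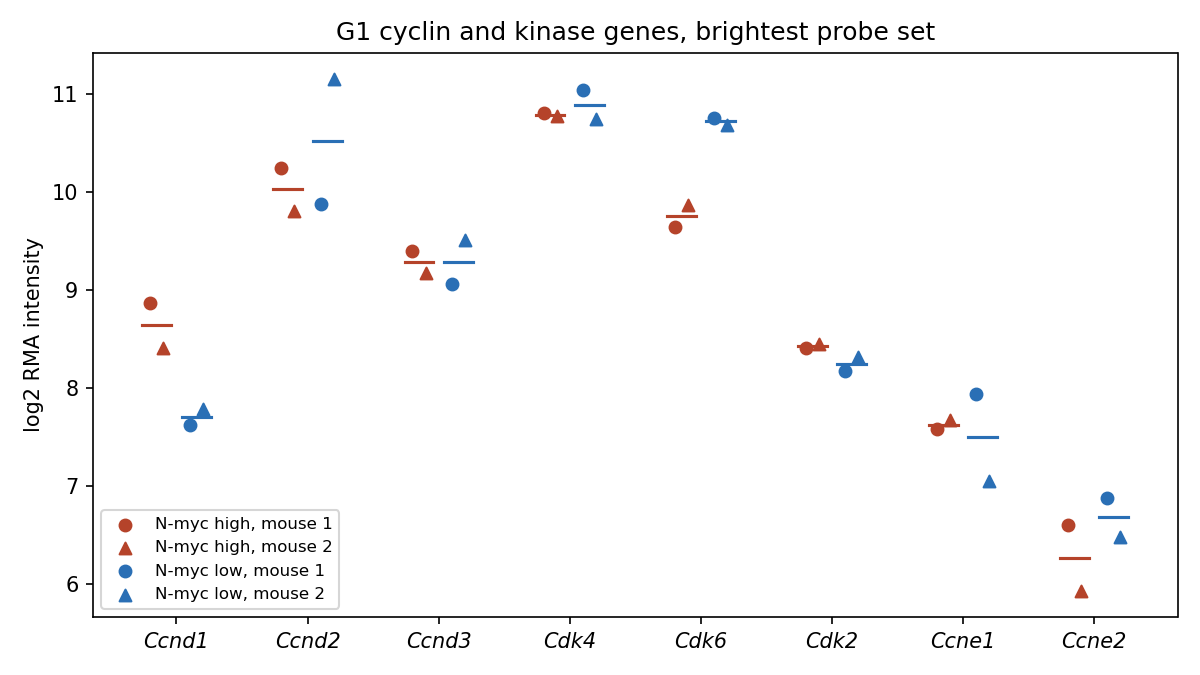
Log2 RMA intensity (vertical axis) of the brightest probe set of each of the 8 genes (horizontal axis) on each array, with N-myc high in red, N-myc low in blue, circles for mouse 1, triangles for mouse 2 and a line at each group mean (n = 2). The red points of Ccnd1 lie above the blue ones, those of Cdk6 lie below them, and the spread of Ccnd2 comes from N-myc low mouse 2 at 11.15.

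Cdk6 (probe set 1435338_at) had the smallest p of the members and was lower in N-myc high cells of both mice. Its log2 intensity was 9.64 and 9.86 in N-myc high cells, against 10.75 and 10.68 in N-myc low (mouse 1 and mouse 2). The groups did not overlap, and they lay further apart than the arrays within either group. The mean was 9.75 ± 0.160 in N-myc high cells, against 10.72 ± 0.050 in N-myc low (SD, n = 2 each), a difference of -0.97 with a standard error (SE) of 0.189, or a level 0.512 times that of N-myc low. The 95% interval of the difference ran from -1.47 to -0.46, and the limma p was 0.00497 unadjusted and 0.744 adjusted over all genes. The difference was -1.12 within mouse 1 and -0.82 within mouse 2.

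The other probe sets of Cdk6 gave the same direction. The second brightest was at 9.40 and 9.10 in N-myc high cells, against 10.19 and 9.88 in N-myc low, a difference of -0.79, and the third was at 8.54 and 8.94 in N-myc high cells, against 9.49 and 9.33 in N-myc low, a difference of -0.67. All 3 probe sets were thus lower in N-myc high without overlap, as were all probe sets of 44 among the 2366 genes with 3 probe sets (1.86%). The annotation ties the brighter pair to the same sequence record, and all 3 read the same gene, so they are no replicates of each other.

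Marker genes of other cells differed along with Cdk6 on the same arrays. Of 4 multipotent progenitor markers, 3 were lower without overlap (20.8% of all genes were), namely Cd48 (7.42 and 7.11 in N-myc high cells, against 9.89 and 9.07 in N-myc low), Plac8 (9.40 and 9.79, against 10.53 and 10.36) and Cd34 (9.49 and 10.10, against 10.47 and 10.22). The summed log2 level of these 4 markers was 34.49 and 35.28 in N-myc high cells, against 38.38 and 36.20 in N-myc low. Flt3, the remaining progenitor marker, went the other way (8.18 and 8.28, against 7.49 and 6.56). Among markers of maturing lineages, 5 of 6 granulocyte, 4 of 5 megakaryocyte, 3 of 5 erythroid and 3 of 6 T and NK cell genes also lay lower without overlap, and the megakaryocyte gene Pf4 (difference 0.47) and the T cell gene Cd3d (difference 0.20) lay above. Their summed levels were 69.12 and 67.76 in N-myc high cells, against 70.17 and 70.97 in N-myc low (granulocyte), 40.66 and 40.34, against 42.55 and 41.98 (megakaryocyte), 36.28 and 34.73, against 38.84 and 37.40 (erythroid), and 30.87 and 30.76, against 33.02 and 32.62 (T and NK cell). The B cell and macrophage lists had 2 of 6 genes each above, where 15.6% of all genes lay, and 0 below. The B cell sum was 37.29 and 34.86 in N-myc high cells, against 30.43 and 36.61 in N-myc low, and the macrophage sum was 36.01 and 35.47, against 34.05 and 30.90. Named after their values were seen, the B cell gene Vpreb1 had a difference of 2.45 and the macrophage gene C1qb one of 2.66. Each was the largest of its list, and the list medians were -0.06 (B cell) and 0.26 (macrophage). Vpreb1 differed by 4.155 in mouse 1 and 0.75 in mouse 2. Also named after its values were seen, the B cell gene Ighm differed by 3.23 in mouse 1 and -3.17 in mouse 2. On the macrophage list C1qa (0.32), C1qc (0.26), Adgre1 (-0.14) and Cd68 (-0.10) overlapped between the groups, and Csf1r (0.27) lay above. The part of progenitor or maturing cells in the Cdk6 difference was not tested, and in sorted bulk RNA fewer cells of a type and less RNA per cell cannot be told apart.

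Cdk4, the sister kinase of Cdk6, did not differ between the fractions beyond the spread. It was at 10.80 and 10.77 in N-myc high cells, against 11.03 and 10.74 in N-myc low, so the N-myc high values lay between those of N-myc low. The difference was -0.10 (SE 0.198, 95% interval -0.63 to 0.43, limma adjusted p = 0.946). The letter x in the name of this brightest probe set, 1422441_x_at, marks that some probes may also match other sequences. The other probe sets of Cdk4, without that letter, gave -0.08 and -0.20, also with overlap.

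RefSeq promoter windows of both kinases hold the letters CACGTG, the E-box that MYC proteins bind together with their partner Max, and they are shown because the cells were sorted by N-myc. Windows from 250 bases before to 50 bases after a RefSeq start (build GRCm38.p6) were at hand for 5 members, namely Cdk4, Cdk6, Cdk2, Ccne1 and Ccnd3, the last with 2 windows. The stretch of Cdk6 lies on chr5:3343653-3343698 (plus strand) and that of Cdk4 on chr10:127063343-127063534 (plus strand), with each CACGTG in capitals. The Cdk4 stretch ends right before the start of the gene, while that of Cdk6 lies inside the gene's span, upstream of a transcript start 2889 bases past the start of the gene, and the sequence before the gene's own first start was not searched.
Cdk6: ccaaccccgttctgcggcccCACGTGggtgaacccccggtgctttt
Cdk4: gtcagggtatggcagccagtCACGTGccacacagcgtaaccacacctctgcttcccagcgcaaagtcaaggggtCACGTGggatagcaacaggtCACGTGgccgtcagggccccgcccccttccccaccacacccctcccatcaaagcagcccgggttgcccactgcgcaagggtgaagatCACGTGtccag

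CACGTG, which reads the same on both strands, occurred 4 times in the Cdk4 window, beginning 172, 118, 98 and 11 bases before the start, and 1 time in the Cdk6 window, 220 bases before it. Of 32851 RefSeq windows, 7.15% held it at least 1 time and 8 (0.0244%) at least 4 times. The windows of Cdk2, Ccne1 and Ccnd3 held 0 matches. The E2F-type letters TTTCGCGC and TTTGGCGC, searched on both strands, had 0 matches in the 6 member windows, against 0.813% of all windows with a match. Beside these letters, Cdk4 stood at a difference of -0.10 and Cdk6 at -0.97 between the fractions. Whether N-myc binds these sites, or has a part in either value, was not tested.

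Ccnd1 (1448698_at), which encodes cyclin D1, was higher in N-myc high cells of both mice. It was at 8.87 and 8.41 in N-myc high cells, against 7.62 and 7.79 in N-myc low. The groups did not overlap. The mean was 8.64 ± 0.323 in N-myc high cells, against 7.71 ± 0.114 in N-myc low (SD, n = 2 each), a difference of 0.93 (SE 0.236, 95% interval 0.31 to 1.56) or 1.91-fold, with a limma p of 0.0131 unadjusted and 0.762 adjusted over all genes. The difference was 1.24 within mouse 1 and 0.63 within mouse 2. Leaving out N-myc high mouse 1 gave a difference of 0.71 with an unadjusted limma p of 0.0613, and leaving out N-myc low mouse 1 gave 0.85 with 0.0590.

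The other probe sets of Ccnd1 also lay higher in N-myc high without overlap. The second was at 8.45 and 7.90 in N-myc high cells, against 7.78 and 7.54 in N-myc low, a difference of 0.52, and the third at 6.99 and 7.39 in N-myc high cells, against 6.65 and 5.87 in N-myc low, a difference of 0.93. The third owed most of it to mouse 2 (1.52, against 0.34 in mouse 1), while the brightest owed more to mouse 1. All 3 probe sets lay above for 31 of the 2366 genes with 3 probe sets (1.31%).

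Ccnd2, which encodes cyclin D2, gave opposite answers from different probe sets. The brightest, 1455956_x_at, was at 10.24 and 9.81 in N-myc high cells, against 9.87 and 11.15 in N-myc low, so the groups overlapped and N-myc low mouse 2 stood apart. Its difference was -0.49 (SE 0.482, limma adjusted p = 0.876), made of 0.37 in mouse 1 and -1.35 in mouse 2. Without N-myc low mouse 2 it was 0.15, and without N-myc low mouse 1 it was -1.13. The letter x in such a name marks a probe set in which some probes may also match other sequences.

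The other 6 probe sets of Ccnd2 were all higher in N-myc high, in mouse 1 as well as in mouse 2. Their differences ran from 0.16 to 0.65 with a median of 0.34, and 5 of the 6 did not overlap between the groups, where 15.4% of all probe sets lay above. The widest was 1434745_at, at 9.89 and 9.94 in N-myc high cells, against 9.62 and 8.91 in N-myc low. Between the N-myc low arrays, mouse 2 minus mouse 1 was 1.28 for the brightest probe set and -0.70 to 0.09 for these 6. N-myc low mouse 2 was also the array with the highest hybridisation controls, whose part was not tested. Unadjusted limma p values of the 6 ran from 0.0646 to 0.601, so none passed by itself, and with shared transcripts they count as 1 gene.

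**Figure D2:**
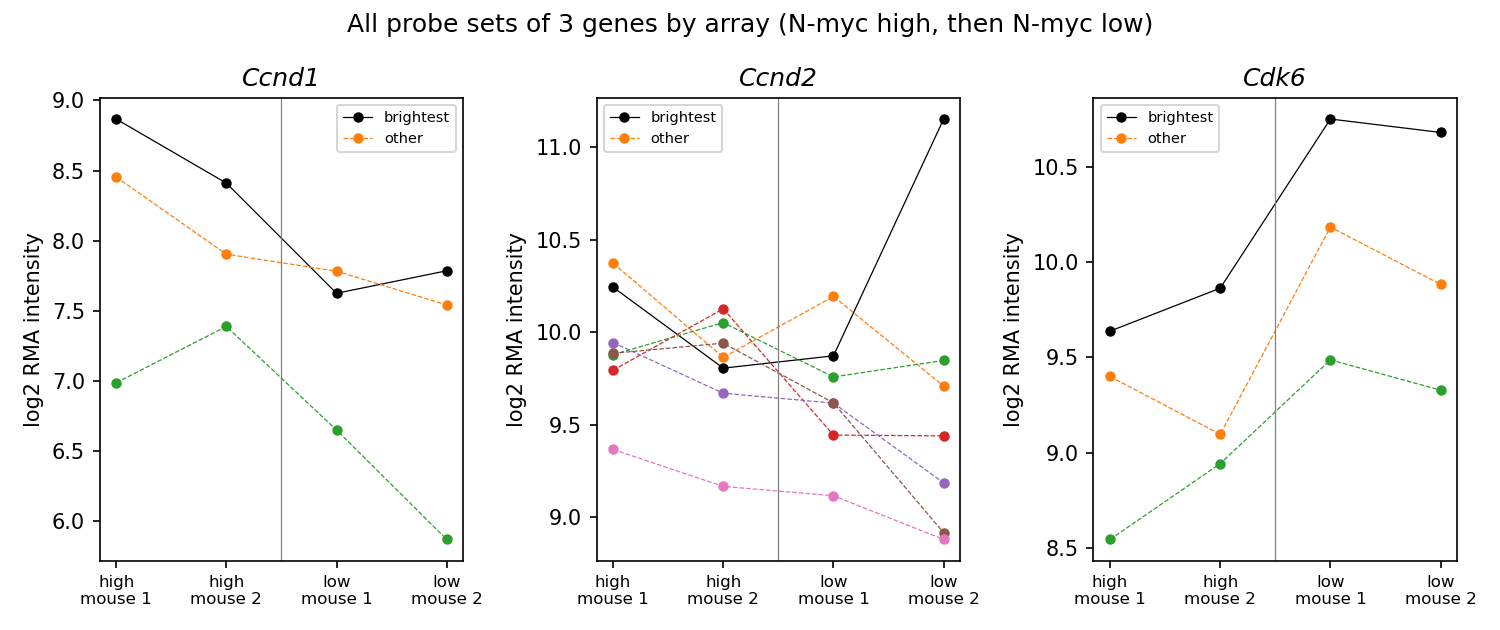
Log2 RMA intensity (vertical axis) of every probe set of Ccnd1, Ccnd2 and Cdk6 on the 4 arrays (horizontal axis, N-myc high left of the grey line and N-myc low right of it), with a line joining the values of each probe set, black for the brightest and coloured for the others. The brightest Ccnd2 probe set is 1.28 higher on N-myc low mouse 2 than on N-myc low mouse 1, where the other 6 differ by -0.70 to 0.09, while the 3 probe sets of Ccnd1 lie higher, and the 3 of Cdk6 lower, in N-myc high.

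Ccnd3, which encodes cyclin D3, showed no direction. It was at 9.39 and 9.18 in N-myc high cells, against 9.06 and 9.50 in N-myc low. The mice went opposite ways, 0.33 in mouse 1 and -0.33 in mouse 2, and the mean difference was 0.00020 (SE 0.237, 95% interval -0.63 to 0.63, limma adjusted p = 1). Its other probe sets gave -0.20 and -0.36 with overlap, and the dimmest ranged from 4.91 to 6.89 within N-myc high alone.

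Cdk2, the kinase of the E-type cyclins, was at 8.40 and 8.45 in N-myc high cells, against 8.17 and 8.31 in N-myc low. The groups did not overlap, but the gap was small, with a difference of 0.18 (SE 0.178, 95% interval -0.29 to 0.66, limma adjusted p = 0.870). A second probe set lay between 1.97 and 2.19 on all arrays, among the dimmest 0.713% of the probe sets with 1 gene name, and adds no information.

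The E-type cyclins did not separate the fractions. Ccne1 was at 7.58 and 7.67 in N-myc high cells, against 7.94 and 7.05 in N-myc low, a difference of 0.13 (SE 0.343, limma adjusted p = 0.966), with -0.36 in mouse 1 and 0.62 in mouse 2. Its other probe set, 1441910_x_at, gave -0.11 and was also split between the mice. Ccne2, with 1 probe set, was at 6.61 and 5.93 in N-myc high cells, against 6.88 and 6.48 in N-myc low. It was lower in N-myc high of each mouse, by -0.28 and -0.55, but the groups overlapped, and the difference of -0.41 (SE 0.314, 95% interval -1.25 to 0.42, limma adjusted p = 0.835) was smaller than the SD within N-myc high (0.480). Leaving out 1 array of N-myc high moved it to -0.75 (mouse 1 left out) or -0.07 (mouse 2 left out), and leaving out 1 of N-myc low to -0.21 (mouse 1) or -0.62 (mouse 2).

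Over all 24 probe sets, 13 differences were positive and 11 negative, 9 probe sets lay above and 3 below without overlap, and 4 had an unadjusted p under 0.05. Of all probe sets with 1 gene name, 15.4% lay above, 20.8% lay below and 6.32% had such a p. Those 4 were the 3 of Cdk6 and the brightest of Ccnd1. The 9 that lay above were the 3 of Ccnd1, 5 of Ccnd2 and 1 of Cdk2.

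**Figure D3:**
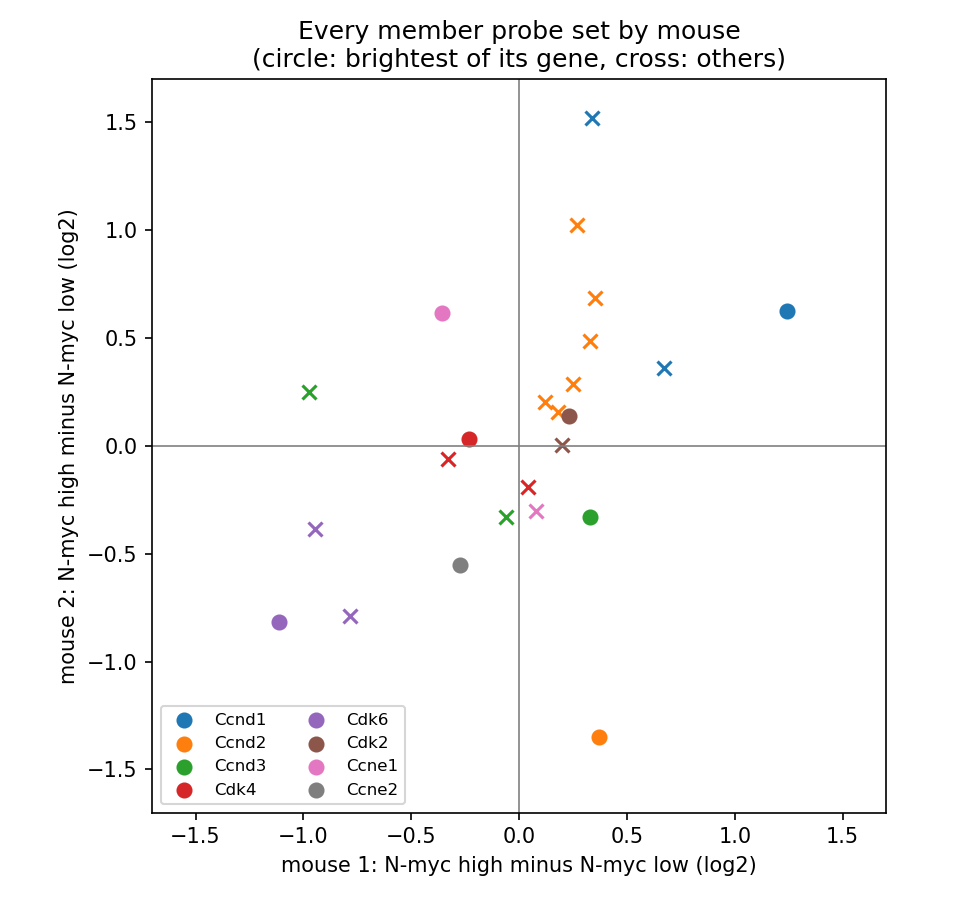
Difference between N-myc high and N-myc low (log2) within mouse 1 (horizontal axis) against that within mouse 2 (vertical axis) for each of the 24 probe sets, coloured by gene, with circles for the brightest probe set of a gene and crosses for the others. The 3 Cdk6 probe sets fall in the lower left, those of Ccnd1 and 6 of the 7 of Ccnd2 in the upper right, and the brightest Ccnd2 probe set at 0.37 and -1.35 in the lower right.

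Among the CDK inhibitors, which hold these kinases in check, 1 of 7 genes was higher and 1 lower at an unadjusted limma p under 0.05. Of all genes, 3.53% were higher and 2.78% lower at that p. In this list 0 passed the adjusted threshold. The list had a median difference of 0.10. Cdkn1c, which encodes the inhibitor p57, was at 7.03 and 7.32 in N-myc high cells, against 5.09 and 5.87 in N-myc low, a difference of 1.69 (SE 0.325). Cdkn2a gave -0.62 at a dim level, and Cdkn1a, which encodes p21, gave 0.57 with -0.08 in mouse 1 and 1.23 in mouse 2. Cdkn1b, which encodes p27, was added after its value was seen and gave 0.10.

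The retinoblastoma and E2F proteins, on which the kinases act, had a median of -0.03 over 13 genes. At an unadjusted limma p under 0.05, 2 were higher and 2 lower, against 3.53% and 2.78% of all genes. The adjusted threshold was passed by 0 of them. The activator E2f2 gave -0.84 (SE 0.258), the repressor E2f7 1.46 (SE 0.511) and the retinoblastoma relative Rbl2 0.70 (SE 0.251). Rb1 itself, named after its value was seen as the other gene of the lower pair, was at 6.58 and 6.46 in N-myc high cells, against 6.96 and 7.08 in N-myc low, a difference of -0.50 (SE 0.181). E2f1 gave -0.03. In the fit blocked by mouse, 1 gene was higher (Rbl2) and 1 lower (E2f2) at an unadjusted p under 0.05, against 3.59% and 2.45% of all genes in that fit, while E2f7 (0.0621) and Rb1 (0.0750) were not.

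Genes that activate or degrade G1 cyclin kinases had a median of -0.02 over 17 genes, with 0 at an unadjusted p under 0.05 in limma. Fbxo4, an F-box protein linked to cyclin D1 turnover, gave -1.08 (SE 0.463), although mouse 1 (-1.85) and mouse 2 (-0.31) differed in size. Ccnh, the cyclin of the CDK-activating kinase, gave -0.57 (SE 0.254), and Fbxo31, another F-box protein linked to cyclin D1, gave 0.53 (SE 0.350). Upstream regulators, with Mycn among them, had a median of -0.04 over 13 measured genes of 14. Only Mycn was at an unadjusted p under 0.05 in limma. The cells were sorted by N-myc, so Mycn is no result about this list. In the blocked fit Foxo1 joined it (unadjusted limma p 0.0104). Foxo1, a factor of quiescence under growth signal control, gave 1.00 (SE 0.430; 1.08 in mouse 1 and 0.93 in mouse 2) and the kinase gene Akt1 0.34 (SE 0.172).

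Downstream, the E2F-responsive S phase genes had a median of -0.02 over 19 measured genes of 20, and 0 had an unadjusted p under 0.05. The members of smallest p were Tyms, of thymidylate synthesis (0.45, SE 0.201), the DNA polymerase gene Pole (-0.51, SE 0.244) and the transcription factor gene Mybl2 (-0.68, SE 0.357). Blocking by mouse gave Mybl2 an unadjusted p of 0.0303. Mitosis genes had a median of -0.11 over 13 measured genes of 14, again with 0 at an unadjusted p under 0.05, while 5 lay below and 0 above without overlap (20.8% and 15.6% of all genes). Of these, the checkpoint kinase gene Bub1 gave -1.02 (SE 0.420, unadjusted p 0.0257 when blocked by mouse), the kinase gene Aurka -0.44 (SE 0.260) and the topoisomerase gene Top2a -0.26 (SE 0.177). Mki67, the common proliferation marker, named after its value was seen, was at 11.72 and 11.56 in N-myc high cells, against 11.78 and 11.52 in N-myc low.

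The other cyclins and cyclin-dependent kinases, the wider families of the members, had a median of -0.09 over 30 measured genes of 31, with 0 at an unadjusted p under 0.05. Besides Ccnh, the genes of smallest p were Ccny (0.43, SE 0.192) and Ccnl2 (0.47, SE 0.247). No gene of this list came as far from 0 as Cdk6 or Ccnd1.

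**Figure D4:**
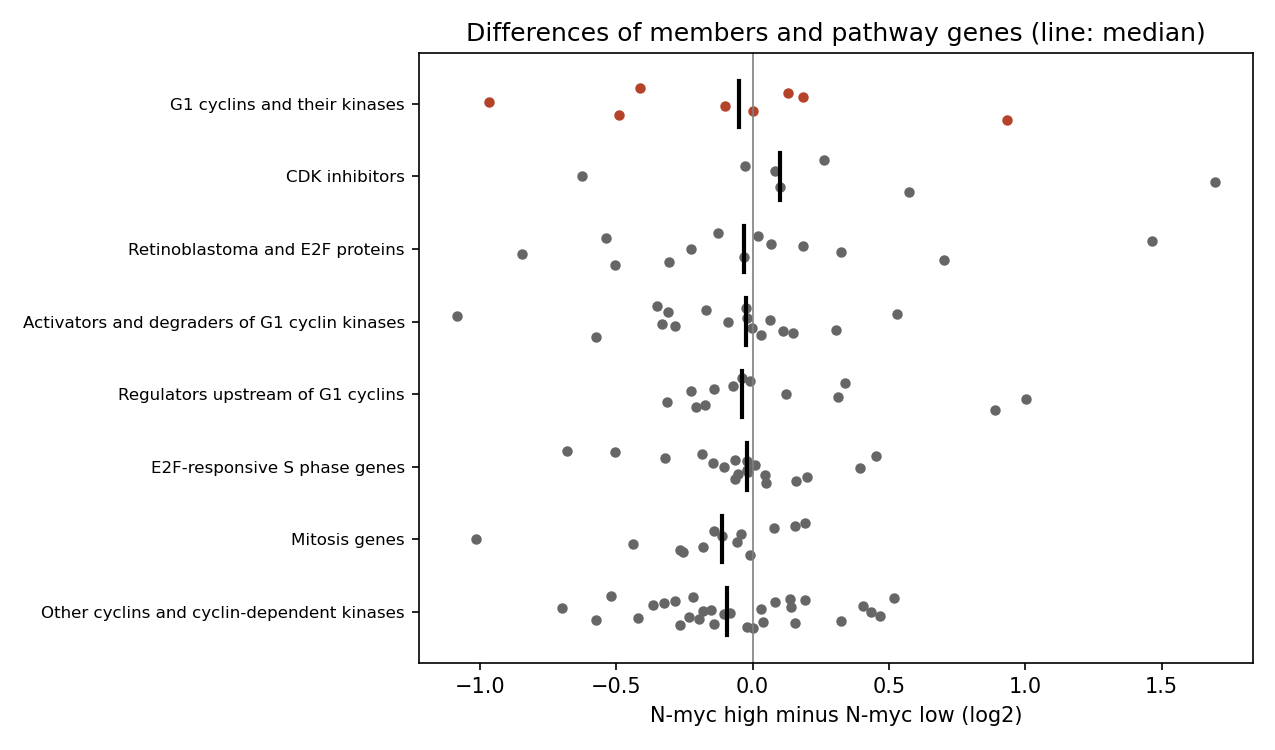
Difference between N-myc high and N-myc low (log2, horizontal axis) of each of the 8 members (red) and of the measured genes of 7 pathway lists (grey, 1 row per list, 1 point per gene), with a black line at each median. Every median lies between -0.11 and 0.10, and the outermost members are Cdk6 at -0.97 and Ccnd1 at 0.93.

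Ccnd2 had the widest range of the members over the 4 arrays (1.35), through its brightest probe set. The genes with the nearest profile, by root mean square distance of centred log2 values over the 4 arrays, were Ankdd1b (0.043), Eif5a2 (0.050), Cdc73 (0.054), Naa16 (0.065) and Fam3b (0.073). All 5 were highest in N-myc low mouse 2, by construction of the likeness.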

How the data were processed

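RNA of 4 mouse stem cell samples was measured on Affymetrix-type arrays. Amplification with NuGEN Ovation kits started from 5 ng of RNA, per the labels' protocols. The deposited values are log2 intensities per probe set, made by the authors with RMA. The submitters' processing notes name RMA, affy and limma, with no version. RMA equalises arrays by quantiles, so a shift shared by all genes is removed. Detection calls were not used, and the small number of arrays limits the precision.

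Groups and mice were taken from the sample titles. Of 45101 probe sets, 34945 carried 1 gene name, 932 several and 9160 none, and 64 were controls. Current symbols came from RefSeq (GRCm38.p6), where 34754 probe sets matched by Entrez number. The probe set with the highest mean stood for a gene. Groups were compared with limma 3.58.1 in R 4.3.3 (lmFit, eBayes), adjusted by Benjamini-Hochberg over 18193 genes, with no filter on dim genes. The smallest two-sided p of an exact permutation test on 2 against 2 arrays is 0.333. The labels give the animals as mouse 1 and 2. Same-numbered arrays were read as paired by animal for the differences within a mouse and for the blocked fit. The main fit was not paired, and it gave the SE, intervals and p values unless another fit is named. Deviations of same-numbered arrays from the group means had a correlation of r = 0.0492 over genes, and genes are no independent replicates. The fit was checked on simulated data. Promoters were searched in RefSeq windows. Named genes were the members, Mycn, the 3 genes of smallest p per pathway list and the 5 nearest profiles, and others are marked in the text. Members and lists were chosen with earlier results of these data known.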

Additional observations from a re-analysis of the deposited data

How the results depend on the processing

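Over 13 alternatives, 1 of them chosen after seeing the data (probe sets with the suffix x or s left out), 0 genes and 0 members passed the adjusted threshold in limma, and the lowest adjusted p of a member was 0.547. Ccnd1, Cdk6, Cdk2 and Ccne2 kept their sign in all 12 alternatives that give 1 value per gene, although with 1 array left out Ccne2 ran from -0.75 to -0.07 and Cdk2 from 0.11 to 0.25. Ccnd2 turned to 0.24 with the mean of its probe sets, to 0.17 with that suffix left out and to 0.15 without N-myc low mouse 2 (with 1 array left out, -1.13 to 0.15). Ccnd3 turned to -0.19 with the mean of its probe sets, to -0.11 without N-myc high mouse 1 and to -0.22 without N-myc low mouse 1 (-0.22 to 0.22). Cdk4 turned to 0.047 without N-myc low mouse 1 (-0.25 to 0.047) and Ccne1 to -0.31 without N-myc low mouse 2 (-0.31 to 0.57). With every probe set on its own, 4 of 24 had an unadjusted limma p under 0.05, 9 lay above and 3 below. Ccnd2, whose brightest probe set overlapped between the groups, gave 5 of the 9. With 1 array left out, 2 to 4 members lay above and 1 to 4 below. A lone array overlaps less easily with 2 others, so these counts cannot be set against those of all 4 arrays. The matching shares of all genes were not counted. The members' median ran from -0.11 to 0.01 with 1 array left out and was 0.065 with the suffix left out. With the mouse as a replicate block, Cdk6 had an unadjusted p of 0.0141 and Ccnd1 of 0.0292, and 2 members were under 0.05. In that fit 0 genes passed the adjusted threshold and 1098 had an unadjusted p under 0.05. Among the pathway genes, Foxo1, Bub1 and Mybl2 came under that unadjusted threshold and E2f7 and Rb1 left it. Centring or quantile normalisation moved the median of all genes by 0.03 and 0.04. Of 91 list medians, 27 moved by more than the spread between the mice, and the cause was not tested. With 2 arrays a group, a lone array in a group was assumed to vary like the other group.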

Other observations

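The genes nearest to Cdk6 and to Ccnd1 in profile over the 4 arrays were looked up after the values of both were seen. Those nearest to Cdk6, by root mean square distance of centred log2 values, were Fancg (0.025, difference between N-myc high and N-myc low -0.96), Sap30l (0.036, difference -0.90), Anapc15 (0.036, difference -0.995), Bbs5 (0.051, difference -0.88) and Supt7l (0.070, difference -0.86). Those nearest to Ccnd1 were Jrk (0.022, difference 0.91), Wdyhv1 (0.030, difference 0.94), Zfp677 (0.042, difference 0.92), Rab6b (0.071, difference 0.99) and 1700018L02Rik (0.075, difference 0.92). Fancg belongs to the Fanconi anaemia pathway of DNA repair, Anapc15 to the anaphase-promoting complex, and Rab6b is a small GTPase of the Golgi. With 4 arrays, many genes follow any given profile closely, so these are names and values only.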
